A study of Mus musculus with 18 samples.

Results

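Interferon-stimulated effector genes were followed here as a group of 52 named genes, found by gene symbol among the 24421 genes of each deposited count table. All 52 were listed in both tables, 50 of them passed the filter on low counts in the cultured cells (Mx1 and Epsti1 did not), and all 52 were tested in the sorted cells. The study was on bone marrow mesenchymal stem/progenitor cells (MSPCs) of C57BL/6 mice and on Pot1a, a telomere-binding protein of the shelterin complex. For 12 libraries, CD51+/PDGFRα+ cells grown from the marrow of 4 to 6 months old mice were given Cre recombinase in vesicles (gesicles). They were re-sorted as tdTomato+ cells and sequenced at week 1 or 4, counted by the study from the Cre treatment. The control group was Pot1a wt/wt and the deleted group Pot1a flox/flox before Cre (Pot1a Δ/Δ after it), with 3 libraries for each genotype and week, and all of these mice carried a flox-stop-flox tdTomato reporter, so that the controls had also been given Cre. Another 6 libraries were made from tdTomato+ cells sorted straight from the marrow of NG2-cre / loxp-tdTomato mice at 2 weeks of age, 3 labelled Pot1a wt/Δ and 3 labelled Pot1a Δ/Δ. NG2-cre acts in pericytes and other NG2-expressing cells and their progeny.

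Interferons are secreted proteins that bind receptors on the cell surface, whose kinases (JAK1, TYK2, JAK2) phosphorylate the STAT factors. Type I interferons act mainly through a complex that holds STAT2 and IRF9 and binds the interferon-stimulated response element, whereas interferon-γ acts mainly through the gamma-activated site. The genes switched on in this way act on viral RNA, on translation, on membranes and on protein modification, and stromal cells of the marrow express and induce many of them. The 52 genes are given in 7 groups by role, namely signalling factors, ISG15 conjugation, RNA and translation effectors, nucleotide, membrane and budding effectors, GTPases, ubiquitin ligases with ADP-ribosyltransferases and nuclear body proteins, and others. By the RefSeq positions, 12 of the 52 lie on chromosome 11 and 6 on chromosome 16.

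Both response elements could be looked for in the gene starts. At least 1 window of 250 bases before to 50 bases after the start was present in RefSeq for 41 of the 52 genes (GRCm38.p6). These genes had 50 windows, and a gene was counted if any of its windows held a match. A repeat of GAAA, with any 2 bases between the copies, is the core of the interferon-stimulated response element. It was found on either strand in 22 of the 41 genes (53.7%), against 3.99% of 27025 genes. The letters TTCNNNGAA, those of a gamma-activated site, were found in 11 of the 41 genes (26.8%), against 9.55% of the 27025. The windows of Bst2, Eif2ak2, Gbp7, Ifitm3, Igtp, Irf2 and Irgm2 held both, and in Bst2 and Ifitm3 the matches overlapped. The stretches below are from genes picked by hand among those with a repeat of GAAA before the start, so they do not stand for all genes with large differences. No such repeat was found for Usp18, Rtp4, Slfn2, Iigp1, Gbp6, Herc6 or Sp100, for want of a match or of a window. Rsad2 is shown although it was not called between the genotypes at either week. Each is written 5′ to 3′ along the gene's own strand from the first window listed for the gene, with the matches that lie before the start and 10 bases on either side of them, cut off at the start, and the capitals mark the repeat of GAAA or, on the other strand, of its reverse complement TTTC.
Isg15 (chr4:156200865-156200906, minus strand): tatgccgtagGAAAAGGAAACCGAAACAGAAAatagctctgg
Ifit1 (chr19:34640775-34640823, plus strand): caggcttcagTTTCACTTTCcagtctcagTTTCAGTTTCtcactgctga
Ifit3 (chr19:34583363-34583426, plus strand): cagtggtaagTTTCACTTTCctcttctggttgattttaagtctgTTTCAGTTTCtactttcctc
Ddx60 (chr8:61928024-61928086, plus strand): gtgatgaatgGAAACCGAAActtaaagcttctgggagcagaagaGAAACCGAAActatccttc
Gbp3 (chr3:142559989-142560024, plus strand): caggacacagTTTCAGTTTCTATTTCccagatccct
Gbp2 (chr3:142620594-142620623, plus strand): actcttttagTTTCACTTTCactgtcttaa
Irgm2 (chr11:58214903-58214932, plus strand): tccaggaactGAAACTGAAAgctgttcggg
Igtp (chr11:58199512-58199541, plus strand): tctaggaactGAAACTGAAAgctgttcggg
Bst2 (chr8:71537577-71537612, minus strand): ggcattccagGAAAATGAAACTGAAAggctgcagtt
Rsad2 (chr12:26456553-26456582, minus strand): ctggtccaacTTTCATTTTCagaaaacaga
Slfn8 (chr11:83020839-83020868, minus strand): atttgagcagTTTCGTTTTCcccaaaagca
Trim30a (chr7:104465210-104465239, minus strand): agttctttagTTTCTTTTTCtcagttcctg
A match describes letters and does not show binding. The Isg15 stretch (minus strand) holds 3 overlapping matches, and Bst2 and Gbp3 each hold 2 that overlap. Ifit1, Ifit3 and Ddx60 hold 2 separate matches. Igtp and Irgm2 are neighbouring genes on chromosome 11, and their matches have the same letters.

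Before any comparison the labels were checked against the targeted gene. Pot1a had 34.3, 33.8 and 36.6 CPM in wt/wt and 31.1, 37.9 and 34.6 CPM in Δ/Δ at week 1 (CPM, the count scaled to the size of its library, with replicates 1, 2 and 3 in order here and throughout). Its log2 difference between Δ/Δ and wt/wt was -0.02 ± 0.11, adjusted p = 0.987. At week 4 Pot1a had 37.8, 33.7 and 33.2 CPM in wt/wt and 47.9, 46.3 and 42.8 CPM in Δ/Δ, a log2 difference of 0.39 ± 0.11, adjusted p = 0.0298, and in the sorted cells 26.9, 30.0 and 34.3 CPM in wt/Δ and 30.8, 19.1 and 31.0 CPM in Δ/Δ (-0.17 ± 0.24, adjusted p = 0.824). Pot1a did not pass the test as lower in any group labelled Δ/Δ, and Δ/Δ below names the label. The counts are over the whole gene, and which of its exons the deletion removes was not checked, so reads from the remaining exons may be part of these values. The call at week 4 was lost without wt/wt replicate 2 or 3 or Δ/Δ replicate 1 or 2 (adjusted p = 0.0901 to 0.108).

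Total counts per library were 12807832 to 90717232 in the cultured cells and 28918757 to 49992698 in the sorted cells. Markers of mesenchymal stromal cells summed to 8888 to 22019 CPM in the cultured libraries and to 19828 to 37498 CPM in the sorted ones. In culture the summed CPM of 12 macrophage and monocyte markers was 8.94 to 24.9, with 4 to 8 of the 12 at 0 in all libraries of a group, and those of B cells, T and NK cells, granulocytes and erythroid cells each reached at most 1.75. Endothelial markers summed to 1.94 to 6.77 CPM and megakaryocyte markers to 3.17 to 5.20 CPM in culture. Those of plasmacytoid dendritic cells summed to 7.02 to 98.5 CPM, and Bst2, itself one of the 52 genes, was the only one of those 4 markers tested in culture. The sorted libraries held reads of markers of other cells: 12 macrophage and monocyte markers summed to 985 to 2614 CPM in wt/Δ and 1191 to 2010 CPM in Δ/Δ, granulocyte markers to 1856 to 3781 CPM and 1974 to 3292 CPM, and endothelial markers to 1080 to 1740 CPM and 1718 to 1861 CPM. B cell markers summed to 100.1 to 211 CPM, erythroid markers to 133 to 298 CPM and plasmacytoid dendritic cell markers to 135 to 303 CPM in the 6 sorted libraries. Megakaryocyte markers stood apart in wt/Δ replicate 2 (1560 CPM) and Δ/Δ replicate 3 (784 CPM), against 16.5 to 26.1 CPM in the other 4. The study describes its tdTomato+ cells within a CD45-TER119-CD31- gate, and whether these 6 libraries were sorted through it is not given in the sources used here. The part of these cells in any result below was not tested, and in bulk RNA fewer cells of a type cannot be told apart from less RNA per cell. The genotype field of all 6 sorted samples names Pot1a fl/fl, whereas the titles name wt/Δ for 3, and replicates 1 and 3 of those 3 had reads of Y-linked genes with 0 and 1 counts of Xist, whereas the other 4 sorted libraries had 1116 to 2078 counts of Xist. The libraries of a group came from separate mice by the study's description, and whether libraries of different groups or weeks share a mouse is not given in the sources used here.

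At week 1 the interferon-stimulated genes were mostly lower in the cells labelled Δ/Δ than in wt/wt, and the number of differences that passed a test depended on the tool. The median log2 difference of the 50 tested genes was -1.11 (-0.51 without wt/wt replicate 3), against 0.00 for all 13169 genes tested, and 48 of the 50 were negative. By edgeR only Slfn5 and Bst2 fell at an adjusted p under 0.05 and none of the 50 rose, where 0.266% of all genes were called lower and 0.752% higher, whereas DESeq2 called 19 of the 50 lower and edgeR with no filter 7 of 52. At an unadjusted p under 0.05, 33 of the 50 were lower, against 627 of all 13169 genes. In 27 of the 50 every Δ/Δ library lay below every wt/wt library, against 10.8% of all genes. Of the macrophage and monocyte markers tested in culture, Lyz2 alone of 4 was higher in Δ/Δ at week 1 (a log2 difference of 1.68), the endothelial marker Tek was also higher (1.23, adjusted p = 0.0200), and the part of such cells was not tested.

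Slfn5, a Schlafen family protein, had 21.5, 16.0 and 30.9 CPM in wt/wt and 8.47, 5.97 and 6.78 CPM in Δ/Δ at week 1. The groups did not overlap, and the log2 difference was -1.69 ± 0.31, adjusted p = 0.0213. Bst2, the tetherin that holds budding virions at the cell surface, had 30.2, 22.9 and 98.3 CPM in wt/wt and 7.99, 6.91 and 10.1 CPM in Δ/Δ. Its wt/wt values spread widely and wt/wt replicate 3 was the highest, yet all 3 lay above the Δ/Δ values (-2.59 ± 0.54, adjusted p = 0.0426). Both calls were lost without wt/wt replicate 3 (adjusted p = 0.0911 for Slfn5 and 0.123 for Bst2) and also without any 1 of the Δ/Δ libraries (at most 0.120 and 0.196).

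Genes with larger differences at week 1 did not pass, and their wt/wt libraries spread widely. Usp18, the protease that removes ISG15 from proteins and also restrains the type I interferon receptor, had 20.01, 8.46 and 71.8 CPM in wt/wt and 0.726, 1.66 and 1.61 CPM in Δ/Δ (-4.60 ± 1.07, adjusted p = 0.0683, 95% interval -6.94 to -2.27). Ifit1, which binds viral RNA with an incomplete cap, had 46.2, 7.995 and 61.3 CPM in wt/wt and 2.36, 2.43 and 2.61 CPM in Δ/Δ (-3.95 ± 0.90, adjusted p = 0.0633). Isg15, the ubiquitin-like modifier itself, had 8.91, 3.32 and 37.3 CPM in wt/wt and 1.81, 1.27 and 1.31 CPM in Δ/Δ (-3.51 ± 0.94, adjusted p = 0.109). In each of the 3 genes wt/wt replicate 2 was the lowest of its group, and it still lay above all Δ/Δ libraries. Only Irf1, a transcription factor of the interferon response, and Ifitm1, an entry-blocking membrane protein, had positive differences, of 0.15 ± 0.16 and 0.73 ± 0.51, with overlapping groups.

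**Figure D1:**
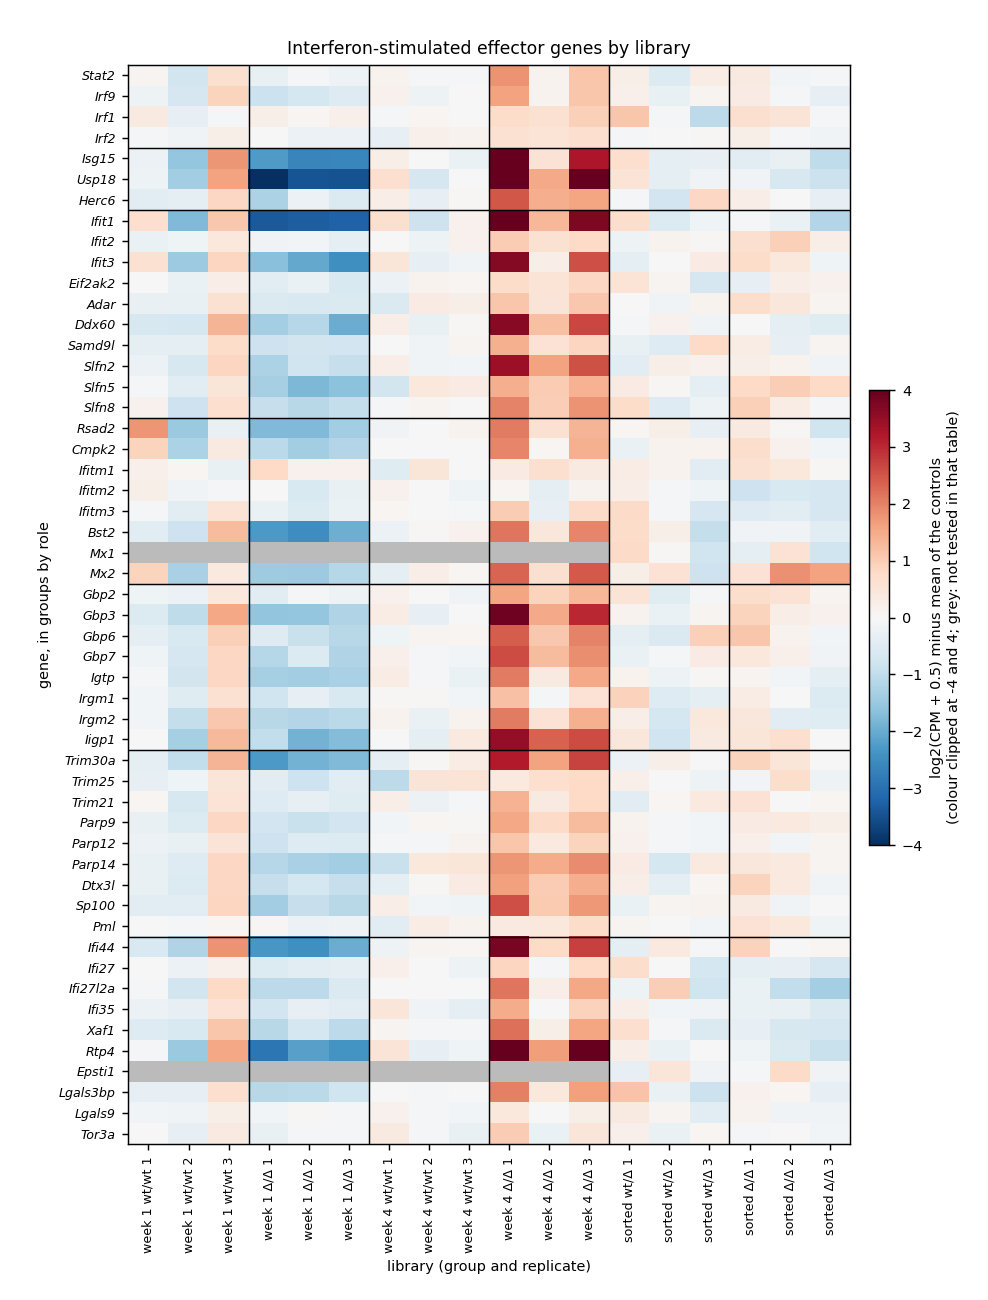
Heat map of the 52 genes, grouped by role, over the 18 libraries. Colour gives the log2 CPM of a library minus the mean of the control group (wt/wt of the same week, or sorted wt/Δ), clipped at -4 and 4, with untested genes in grey. Week 1 Δ/Δ columns are mostly below and week 4 Δ/Δ columns mostly above their controls, with the weakest rise in week 4 Δ/Δ replicate 2, and the sorted columns show no common direction.

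At week 4 the direction was the opposite. Of the 50 tested genes, 35 were higher in the cells labelled Δ/Δ and none was lower at an adjusted p under 0.05, where 9.2% of all genes were called higher and 6.46% lower. The median log2 difference was 1.496 (all genes 0.00), also with Ifi27l2a, whose wt/wt libraries were at 0, set to its bound, and 49 of the 50 were positive. Every Δ/Δ library lay above every wt/wt library in 39 of the 50, against 15.5% of all genes. By role, 3 of 4 signalling factors, 3 of 3 genes of ISG15 conjugation, 9 of 10 RNA and translation effectors, 2 of 7 nucleotide, membrane and budding effectors, 7 of 8 GTPases, 6 of 9 ubiquitin ligases, ADP-ribosyltransferases and nuclear body genes, and 5 of 9 others were called higher. Of 9 tested markers of mesenchymal stromal cells, 4 were higher and 2 lower at week 4, and the part of this in the values below was not tested.

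**Figure D2:**
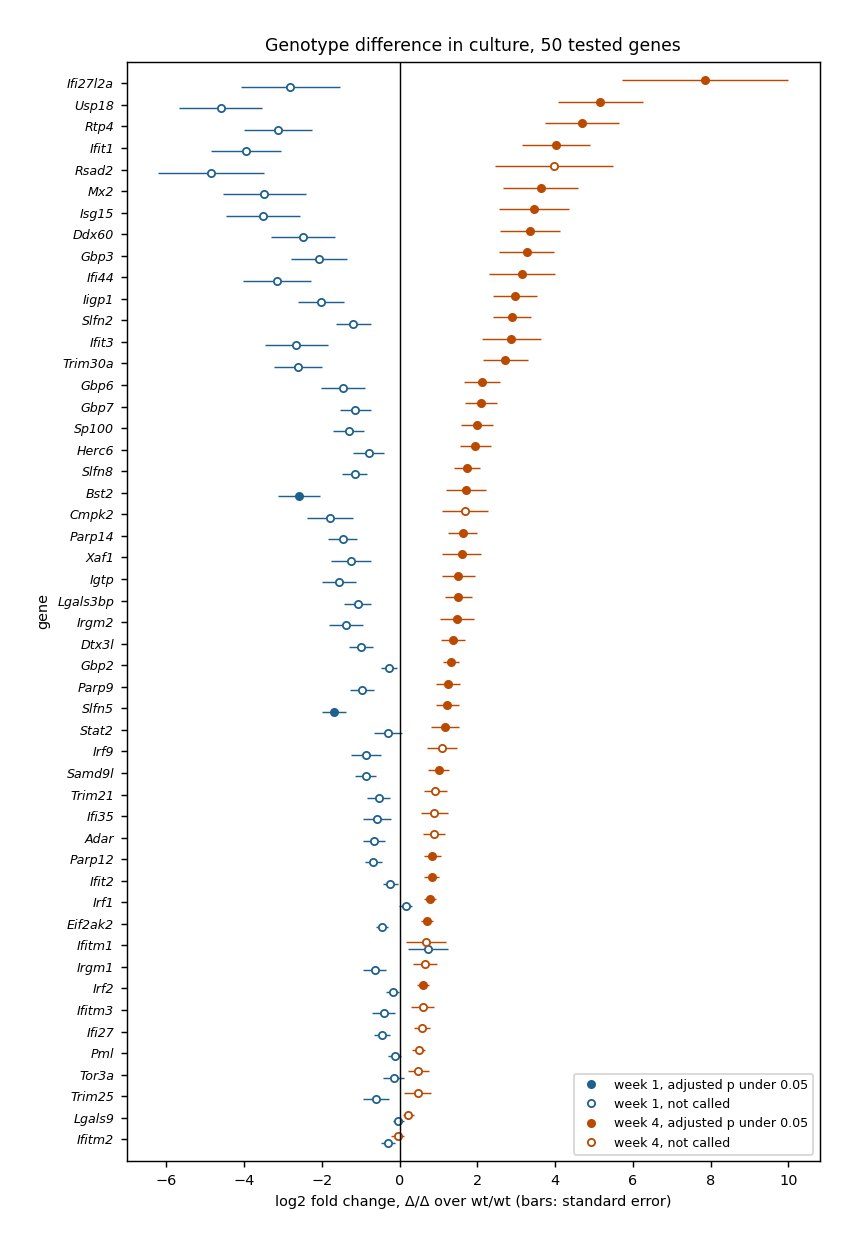
Log2 difference between Δ/Δ and wt/wt for the 50 genes tested in cultured cells, at week 1 and week 4. Points are the fitted values from 3 libraries a group, bars the SE, and filled points have an adjusted p under 0.05. At week 1, 48 of 50 points lie below 0 and 2 are filled, and at week 4, 49 of 50 lie above 0 and 35 are filled.

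Among the signalling factors, the changes of Irf1 and Irf2 were small and regular. Irf1 had 33.4, 37.3 and 34.9 CPM in wt/wt and 59.2, 53.9 and 68.5 CPM in Δ/Δ at week 4 (0.78 ± 0.16, adjusted p = 0.00466). Irf2, first known as an antagonist of Irf1, had 7.55, 11.2 and 10.8 CPM in wt/wt and 15.001, 14.4 and 15.8 CPM in Δ/Δ (0.60 ± 0.17, adjusted p = 0.0266). In both genes the groups stood apart and the 3 Δ/Δ libraries lay close together. Stat2, a STAT factor of type I signalling, had 37.9, 32.6 and 33.0 CPM in wt/wt and 119.9, 38.0 and 74.9 CPM in Δ/Δ, with Δ/Δ replicate 2 only just above the highest wt/wt library (1.17 ± 0.37, adjusted p = 0.0494). Irf9, the DNA-binding subunit of the same complex, had 34.6, 26.9 and 31.4 CPM in wt/wt and 94.6, 34.4 and 66.9 CPM in Δ/Δ, and Δ/Δ replicate 2 lay within the wt/wt range (1.08 ± 0.39, adjusted p = 0.0829).

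All 3 genes in the ISG15 conjugation group rose. Isg15 had 2.91, 2.47 and 1.95 CPM in wt/wt and 47.6, 3.85 and 27.2 CPM in Δ/Δ, with Δ/Δ replicate 2 nearer to wt/wt than to the other Δ/Δ libraries (3.46 ± 0.90, adjusted p = 0.0205). Usp18 had 2.32, 0.628 and 1.28 CPM in wt/wt and 103, 4.54 and 34.9 CPM in Δ/Δ (5.17 ± 1.10, adjusted p = 0.00619). This was the largest difference at week 4 among genes with reads in every wt/wt library. Herc6, the main ligase that attaches ISG15 in the mouse, had 11.5, 7.45 and 9.79 CPM in wt/wt and 54.8, 26.4 and 29.4 CPM in Δ/Δ, with the lowest Δ/Δ library 2.296 times the highest wt/wt library (1.95 ± 0.40, adjusted p = 0.00493).

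The RNA and translation effectors rose with 1 exception. Ifit1 had 7.85, 2.51 and 5.57 CPM in wt/wt and 170.0, 12.8 and 70.3 CPM in Δ/Δ (4.02 ± 0.88, adjusted p = 0.00700). Ifit3, which stabilises Ifit1 on RNA, had 5.98, 3.14 and 3.65 CPM in wt/wt and 58.8, 5.09 and 27.3 CPM in Δ/Δ and was the called gene whose groups overlapped, through Δ/Δ replicate 2 (2.87 ± 0.75, adjusted p = 0.0209). The third gene of this cluster on chromosome 19, Ifit2, had 14.0, 12.0 and 15.7 CPM in wt/wt and 28.3, 21.2 and 24.4 CPM in Δ/Δ, a smaller and more even change (0.83 ± 0.19, adjusted p = 0.0108). Ddx60, a helicase-like RNA binding protein, had 1.27, 0.718 and 1.03 CPM in wt/wt and 18.2, 2.96 and 8.99 CPM in Δ/Δ (3.36 ± 0.77, adjusted p = 0.00960). Eif2ak2, the kinase that halts translation on double-stranded RNA, had 22.6, 29.7 and 28.6 CPM in wt/wt and 45.1, 39.3 and 47.9 CPM in Δ/Δ, with little spread within either group (0.71 ± 0.16, adjusted p = 0.00921).

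Schlafen genes and Samd9l behaved in different ways among replicates. Slfn2, whose loss disturbs quiescence of immune cells, had 4.04, 2.87 and 2.94 CPM in wt/wt and 39.7, 10.8 and 21.3 CPM in Δ/Δ (2.89 ± 0.48, adjusted p = 0.00121). Slfn8 had 6.28, 7.09 and 6.45 CPM in wt/wt and 27.9, 13.6 and 24.1 CPM in Δ/Δ (1.73 ± 0.33, adjusted p = 0.00326). In both, the lowest Δ/Δ library was clearly above all wt/wt libraries. Slfn5 had 10.5, 24.0 and 22.7 CPM in wt/wt and 49.7, 36.5 and 48.2 CPM in Δ/Δ (1.22 ± 0.30, adjusted p = 0.0134), and here wt/wt replicate 1 was the one that differed from its group. Samd9l, a restraint on cell growth and on viruses, had 53.4, 48.0 and 56.7 CPM in wt/wt and 143, 78.6 and 95.4 CPM in Δ/Δ (1.00 ± 0.28, adjusted p = 0.0274). Adar, which edits adenosines in double-stranded RNA, was the exception, with 16.1, 30.6 and 29.0 CPM in wt/wt and 52.7, 34.8 and 52.2 CPM in Δ/Δ. Its groups did not overlap, but the test fell just short (0.88 ± 0.28, adjusted p = 0.0520).

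Nucleotide, membrane and budding effectors were the group with the fewest calls. Bst2 had 16.6, 20.1 and 22.3 CPM in wt/wt and 88.5, 26.8 and 76.3 CPM in Δ/Δ (1.70 ± 0.51, adjusted p = 0.0408), and Δ/Δ replicate 2 stood only a little above wt/wt. Mx2, a dynamin-like GTPase, was at low levels, with 0, 0.269 and 0.177 CPM in wt/wt and 2.68, 0.494 and 2.98 CPM in Δ/Δ (3.64 ± 0.96, adjusted p = 0.0220). Ifitm3, which blocks virus entry at endosomal membranes, had 279.5, 262 and 252 CPM in wt/wt and 536, 212 and 451 CPM in Δ/Δ, and Δ/Δ replicate 2 was the lowest of all 6 libraries (0.60 ± 0.30, adjusted p = 0.224). Its relative Ifitm2 had 97.9, 84.8 and 76.9 CPM in wt/wt and 90.4, 65.4 and 94.2 CPM in Δ/Δ and was the one gene with a negative difference (-0.05 ± 0.18, adjusted p = 0.901, 95% interval -0.44 to 0.33). Rsad2, the enzyme viperin that makes a chain-terminating nucleotide, had only 0, 0.0449 and 0.106 CPM in wt/wt and 1.80, 0.346 and 0.911 CPM in Δ/Δ (3.97 ± 1.52, adjusted p = 0.106), and its chromosomal neighbour Cmpk2, a mitochondrial nucleotide kinase, had 1.27, 1.21 and 1.24 CPM in wt/wt and 6.20, 1.33 and 4.21 CPM in Δ/Δ (1.68 ± 0.59, adjusted p = 0.0784). Mx1 had 0 counts in wt/wt and 13 counts over the Δ/Δ libraries, at least 1.96-fold higher against a floor of 3 counts over the group, and was not tested.

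**Figure D3:**
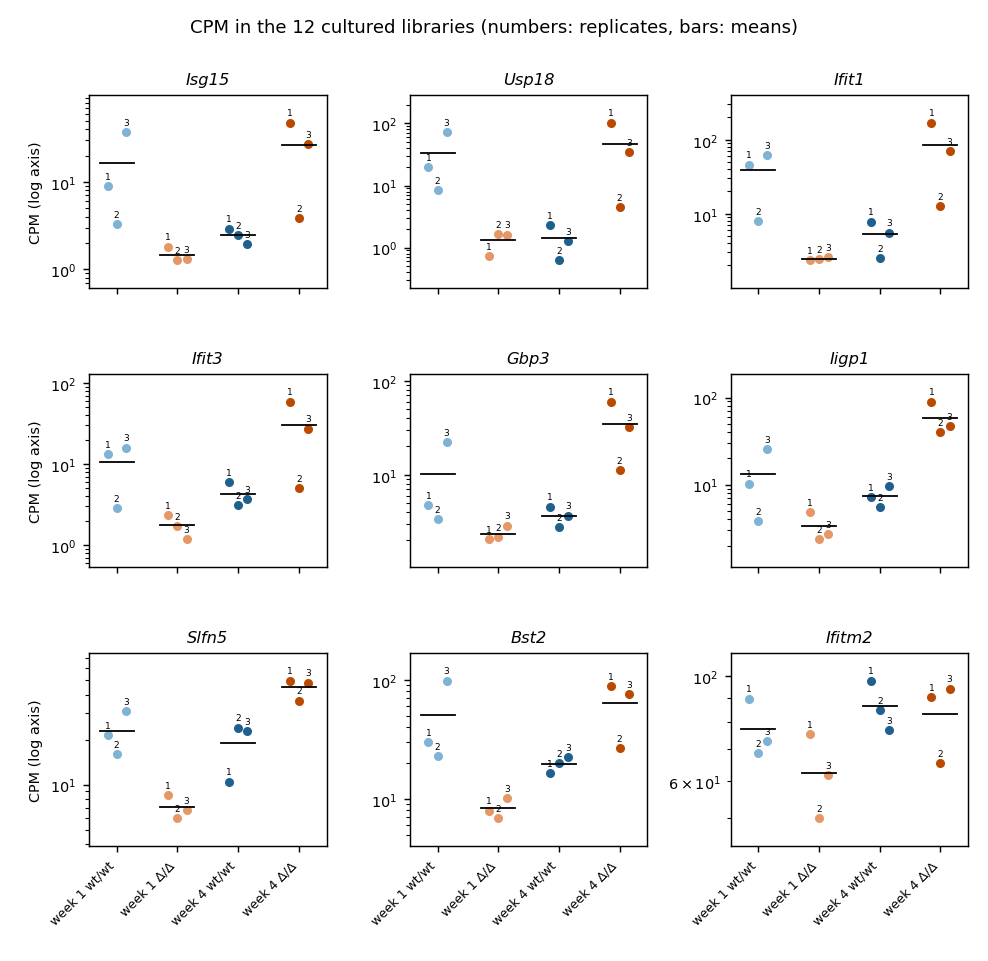
CPM of 9 interferon-stimulated genes in the 12 cultured libraries on a log axis. Each point is a library, marked with its replicate number, and the bars are group means. For Isg15 and Usp18 the highest libraries are week 4 Δ/Δ replicate 1 and week 1 wt/wt replicate 3, and the week 1 Δ/Δ and week 4 wt/wt libraries are low, while Ifitm2 differs little between groups.

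The GTPases rose except Irgm1. These proteins attack the vacuoles and membranes of intracellular pathogens. Gbp2, a guanylate-binding protein, had 30.6, 26.9 and 24.6 CPM in wt/wt and 83.1, 50.9 and 69.6 CPM in Δ/Δ (1.31 ± 0.21, adjusted p = 7.95e-04), the smallest adjusted p of the 50 genes in this comparison. Gbp3 had 4.56, 2.74 and 3.65 CPM in wt/wt and 60.1, 11.2 and 32.4 CPM in Δ/Δ (3.27 ± 0.71, adjusted p = 0.00683). Gbp6 had 2.02, 2.56 and 2.52 CPM in wt/wt and 14.6, 5.58 and 10.7 CPM in Δ/Δ (2.12 ± 0.46, adjusted p = 0.00678), and Gbp7 had 7.70, 6.15 and 6.03 CPM in wt/wt and 42.3, 16.4 and 25.3 CPM in Δ/Δ (2.09 ± 0.41, adjusted p = 0.00339). In these 4 genes the lowest Δ/Δ library had 1.66 (Gbp2) to 2.46 (Gbp3) times the CPM of the highest wt/wt library. Iigp1, an immunity-related GTPase, had 7.17, 5.56 and 9.72 CPM in wt/wt and 89.6, 39.8 and 47.3 CPM in Δ/Δ, with the lowest Δ/Δ library 4.09 times the highest wt/wt library (2.97 ± 0.57, adjusted p = 0.00298).

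For the other immunity-related GTPases, Δ/Δ replicate 2 stood nearer to wt/wt. Igtp had 14.2, 11.1 and 9.47 CPM in wt/wt and 50.1, 14.9 and 33.2 CPM in Δ/Δ (1.51 ± 0.42, adjusted p = 0.0276). Irgm2 had 34.7, 26.2 and 34.7 CPM in wt/wt and 134, 47.8 and 84.8 CPM in Δ/Δ (1.48 ± 0.44, adjusted p = 0.0385). Irgm1, a regulator of the other members and of autophagy, had 99.8, 98.3 and 89.6 CPM in wt/wt and 216, 92.7 and 144 CPM in Δ/Δ, with Δ/Δ replicate 2 inside the wt/wt range (0.65 ± 0.30, adjusted p = 0.178). Members of the Gbp, Irgm, Ifit and Slfn families have similar sequences, so reads could be assigned to the wrong member and the split between relatives is uncertain.

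Among ubiquitin ligases, ADP-ribosyltransferases and nuclear body genes, Trim30a, a TRIM ligase, had 3.14, 4.35 and 5.25 CPM in wt/wt and 41.9, 13.8 and 29.6 CPM in Δ/Δ (2.72 ± 0.57, adjusted p = 0.00567). Sp100, a nuclear body protein, had 9.56, 7.18 and 6.88 CPM in wt/wt and 48.5, 16.7 and 27.4 CPM in Δ/Δ (1.98 ± 0.41, adjusted p = 0.00519). Both had Δ/Δ replicate 1 as the highest and replicate 2 as the lowest library of the group. Dtx3l, a ubiquitin ligase, had 16.4, 21.8 and 26.7 CPM in wt/wt and 66.6, 43.4 and 58.8 CPM in Δ/Δ (1.38 ± 0.32, adjusted p = 0.00988). Its partner Parp9 had 20.8, 24.2 and 23.3 CPM in wt/wt and 67.3, 39.5 and 55.2 CPM in Δ/Δ (1.24 ± 0.31, adjusted p = 0.0145), and the groups of both partners stood apart. The related Parp14 had 4.11, 11.1 and 11.5 CPM in wt/wt and 29.1, 23.4 and 31.3 CPM in Δ/Δ (1.63 ± 0.38, adjusted p = 0.0101), and Parp12 had 44.5, 43.0 and 49.96 CPM in wt/wt and 100.3, 60.3 and 85.8 CPM in Δ/Δ (0.84 ± 0.22, adjusted p = 0.0224).

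The remaining 3 genes of that group did not pass. Pml, the organiser of nuclear bodies, had 53.6, 88.2 and 78.4 CPM in wt/wt and 93.3, 97.2 and 119.6 CPM in Δ/Δ with groups apart but close (0.49 ± 0.17, adjusted p = 0.0656). Trim25, the ligase that activates the RNA sensor RIG-I, had 7.85, 24.1 and 24.6 CPM in wt/wt and 22.4, 26.9 and 29.5 CPM in Δ/Δ, and wt/wt replicate 1 was low (0.46 ± 0.34, adjusted p = 0.435). Trim21, the cytosolic antibody receptor, came near the threshold (0.92 ± 0.30, adjusted p = 0.0534).

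Among the others, Rtp4, a receptor chaperone, had 2.84, 1.35 and 1.56 CPM in wt/wt and 93.6, 6.91 and 41.4 CPM in Δ/Δ (4.69 ± 0.95, adjusted p = 0.00449), and Ifi44 had 1.72, 2.24 and 2.20 CPM in wt/wt and 34.7, 3.90 and 16.5 CPM in Δ/Δ (3.14 ± 0.86, adjusted p = 0.0253). Both showed a wide spread within Δ/Δ. Lgals3bp, a secreted glycoprotein, had 237, 228 and 239 CPM in wt/wt and 952, 315 and 738 CPM in Δ/Δ (1.51 ± 0.35, adjusted p = 0.00985), and Xaf1, an antagonist of the apoptosis inhibitor XIAP, had 9.79, 8.75 and 8.69 CPM in wt/wt and 43.1, 10.7 and 28.2 CPM in Δ/Δ (1.598 ± 0.50, adjusted p = 0.0474). Ifi27l2a had 0 counts in the 3 wt/wt libraries and 139 counts over the Δ/Δ libraries, which was at least 21.0-fold higher (adjusted p = 0.0313). Ifi27, a mitochondrial protein, had 89.97, 77.8 and 68.1 CPM in wt/wt and 141, 74.7 and 137 CPM in Δ/Δ (0.58 ± 0.21, adjusted p = 0.0822), and Lgals9, a galectin, had 232, 192 and 191 CPM in wt/wt and 276, 204 and 239 CPM in Δ/Δ (0.23 ± 0.14, adjusted p = 0.334). Groups of Ifi27 and Lgals9 overlapped through Δ/Δ replicate 2, which lay below wt/wt replicates 1 and 2 in Ifi27 and below wt/wt replicate 1 in Lgals9. Ifi35, Tor3a and Ifitm1 did not pass either, with log2 differences of 0.90, 0.48 and 0.68, and Epsti1, with 2 counts in wt/wt and 14 in Δ/Δ, was not tested.

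Of the 35 calls at week 4, 18 were kept under all alternatives run: Ddx60, Dtx3l, Eif2ak2, Gbp2, Gbp3, Gbp6, Gbp7, Herc6, Ifit1, Iigp1, Irf1, Lgals3bp, Rtp4, Slfn2, Slfn8, Sp100, Trim30a and Usp18. Ifit2, Parp14 and Slfn5 were lost only at an adjusted p of 0.01. The other 14 were lost without at least 1 library. Leaving out Δ/Δ replicate 1 left 22 calls, the fewest. Parp9 was lost without that library alone (adjusted p = 0.0507). Isg15, Ifit3 and Samd9l were lost without Δ/Δ replicate 1 or without wt/wt replicate 2 or 3, with an adjusted p of 0.0644 to 0.0776 for Isg15, 0.0764 to 0.0855 for Ifit3 and 0.0580 to 0.109 for Samd9l. Bst2, Irgm2, Stat2 and Xaf1 were lost without any 1 library other than Δ/Δ replicate 2, and reached an adjusted p of 0.122, 0.148, 0.210 and 0.174. Ifi44, Ifi27l2a, Igtp, Irf2, Mx2 and Parp12 were each lost without any 1 of 3 or 4 libraries, which were Δ/Δ replicate 3 and wt/wt replicates 2 and 3 for Mx2, wt/wt replicate 2 and Δ/Δ replicates 1 and 3 for Parp12, all Δ/Δ libraries and wt/wt replicate 1 for Irf2, all wt/wt libraries and Δ/Δ replicate 1 for Ifi44, and wt/wt replicates 2 and 3 and Δ/Δ replicates 1 and 3 for Ifi27l2a and Igtp (adjusted p up to 0.0870, 0.0879, 0.111, 0.0864, 0.0798 and 0.0842).

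The libraries of a group did not share one level. In the week 4 Δ/Δ group, replicate 1 was the highest in 41 of 50 genes (34.8% of all genes) and replicate 2 the lowest in 47 (38.8%), so that the order 1, 3, 2 held in 41. The median log2 difference from the wt/wt mean was 1.86 for replicate 1, 0.60 for replicate 2 and 1.42 for replicate 3. Replicate 2 nevertheless lay above all 3 wt/wt libraries in 41 of 50 genes, against 31.2% of all genes. In the week 1 wt/wt group, replicate 3 was the highest in 44 of 50 (33.7% of all genes) and replicate 2 the lowest in 43 (31.9%). The medians of the interferon-stimulated genes around the group mean were -0.14, -0.57 and 0.70 for replicates 1, 2 and 3. The median SD of log2 CPM within a group was 0.74 for these genes in week 1 wt/wt, 0.18 in week 1 Δ/Δ, 0.23 in week 4 wt/wt and 0.67 in week 4 Δ/Δ, against 0.15, 0.13, 0.23 and 0.18 over all genes tested. The 2 groups with the higher levels were also those with the wider spread. Of the 12 cultured libraries, week 4 Δ/Δ replicate 1 was the highest in 33 genes and week 1 wt/wt replicate 3 in 9. The summed CPM of the 52 genes was 2038, 1680 and 3495 in week 1 wt/wt, 1403, 1430.3 and 1483 in week 1 Δ/Δ, 1772, 1683 and 1675 in week 4 wt/wt, and 4850 (replicate 1), 2075 and 3658 in week 4 Δ/Δ.

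**Figure D4:**
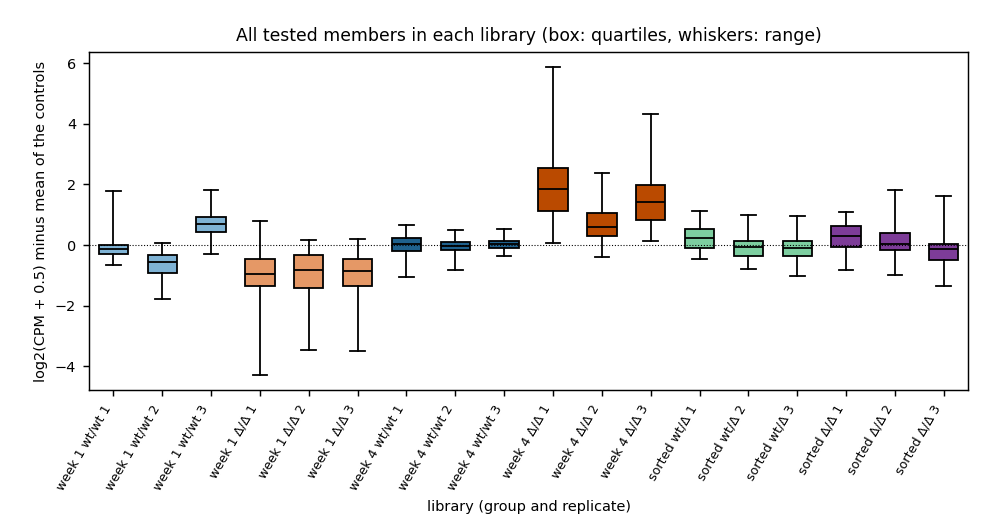
Box plots, for each library, of the log2 difference of the interferon-stimulated genes from the mean of the control group. The line in a box is the median over the genes. Week 4 Δ/Δ replicates 1, 2 and 3 have medians of 1.86, 0.60 and 1.42, and week 1 wt/wt replicates -0.14, -0.57 and 0.70.

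Over culture time the calls were all lower in wt/wt and all higher in Δ/Δ. From week 1 to week 4 in wt/wt, 18 of 50 fell and none rose at an adjusted p under 0.05, where 16.1% of all genes were called lower and 17.9% higher, and the median log2 difference was -0.77 (-0.24 without week 1 wt/wt replicate 3). With the replicate number as a block, 18 were again called, with Irgm1 lost (-0.84, adjusted p = 0.0542). Whether wt/wt libraries of the same number share a mouse is not given. The calls on Rtp4, Samd9l, Slfn2, Slfn8 and Usp18 were kept under all alternatives run. Usp18 went from 20.01, 8.46 and 71.8 CPM to 2.32, 0.628 and 1.28 CPM (-4.66 ± 1.09, adjusted p = 0.00563). Rtp4 went from 17.7, 6.16 and 54.2 CPM to 2.84, 1.35 and 1.56 CPM (-3.83 ± 0.93, adjusted p = 0.00714). Slfn8 went from 21.0, 10.4 and 29.8 CPM to 6.28, 7.09 and 6.45 CPM (-1.62 ± 0.33, adjusted p = 0.00245). In all 3 genes the weeks did not overlap. Slfn2 (-2.19 ± 0.48, adjusted p = 0.00368) and Samd9l (-1.11 ± 0.28, adjusted p = 0.00831) also fell. The other 13 called lower were Cmpk2, Dtx3l, Eif2ak2, Ifi27l2a, Ifi44, Ifit1, Irgm1, Isg15, Lgals3bp, Mx2, Parp14, Rsad2 and Sp100, each lost in at least 1 alternative. Ifi27l2a went from 53 counts to 0, at least 13.2-fold lower. Only 6 calls were left without week 1 wt/wt replicate 3, 7 without week 4 wt/wt replicate 2 and 10 without week 4 wt/wt replicate 3. Over all genes, 1703 to 2170 were called lower with a library left out, so 6 and 7 of 50 are near the share over all genes.

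In Δ/Δ, 45 of 50 rose from week 1 to week 4 and none fell, where 18.8% of all genes were called higher and 16.3% lower, with a median log2 difference of 1.61. Of these calls, 36 were kept under all alternatives run. Slfn5 had the smallest adjusted p, going from 8.47, 5.97 and 6.78 CPM to 49.7, 36.5 and 48.2 CPM (2.67 ± 0.32, adjusted p = 4.35e-05). Gbp6 went from 1.03, 0.663 and 0.517 CPM to 14.6, 5.58 and 10.7 CPM (3.87 ± 0.53, adjusted p = 1.33e-04). Iigp1 went from 4.84, 2.38 and 2.74 CPM to 89.6, 39.8 and 47.3 CPM (4.17 ± 0.61, adjusted p = 2.20e-04). The lowest week 4 library had 4.31 (Slfn5) to 8.22 (Iigp1) times the CPM of the highest week 1 library. Some genes not called between genotypes at week 4 were among those that rose, namely Adar, Cmpk2, Pml, Ifi35 and Tor3a as well as Irf9 (1.52 ± 0.39, adjusted p = 0.00918), Trim21 (1.499 ± 0.30, adjusted p = 0.00212), Ifitm3 (1.01 ± 0.30, adjusted p = 0.0194), Ifi27 (1.01 ± 0.21, adjusted p = 0.00245) and Lgals9 (0.64 ± 0.14, adjusted p = 0.00347). The call on Ifitm3 was lost without week 1 Δ/Δ replicate 2 or week 4 Δ/Δ replicate 1 or 3 (adjusted p = 0.0623 to 0.0781), and those on Adar, Cmpk2, Eif2ak2, Ifi27l2a, Ifit2, Irf2, Samd9l and Stat2 were also lost in at least 1 alternative. The 5 that were not called were Ifitm1, Ifitm2, Irgm1, Trim25 and Rsad2, with log2 differences of -0.06, 0.42, 0.42, 0.19 and 3.77.

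The genotype difference itself changed between the weeks. The interaction, the log2 difference between Δ/Δ and wt/wt at week 4 minus that at week 1, was positive and passed the test in 35 of 50 genes and was negative and called in none, where 4.08% of all genes were called positive and 3.08% negative. The median was 2.79 (all genes 0.01), and 26 calls were kept under all alternatives run. Usp18 had an interaction of 9.77 ± 1.54, adjusted p = 0.00186. Ifit1 had 7.98 ± 1.26, adjusted p = 0.00187, and Rtp4 had 7.83 ± 1.29, adjusted p = 0.00251. In these 3 genes the wt/wt levels exceeded Δ/Δ at week 1 and the reverse held at week 4. Slfn5 had the smallest adjusted p (2.91 ± 0.43, adjusted p = 0.00116). Adar (1.54 ± 0.40, adjusted p = 0.0330), Rsad2 (8.82 ± 2.03, adjusted p = 0.0188) and Cmpk2 (3.46 ± 0.83, adjusted p = 0.0241) passed here though not at either week alone, and each was lost without at least 1 library, Adar without 6 of the 12 in turn (week 1 wt/wt replicate 3, any week 1 Δ/Δ, week 4 Δ/Δ replicate 1 or 3, adjusted p = 0.0661 to 0.0774), Cmpk2 without 8 (all but week 1 wt/wt replicate 2, week 1 Δ/Δ replicate 1, week 4 wt/wt replicate 1 and week 4 Δ/Δ replicate 2, adjusted p = 0.0517 to 0.0677), and Rsad2 without week 1 Δ/Δ replicate 3 (adjusted p = 0.0514). Ifi27l2a, Ifit2 and Xaf1 were lost without 7 or 8 libraries in turn, week 1 wt/wt replicate 3 and each week 1 Δ/Δ library among them (adjusted p up to 0.0717, 0.0957 and 0.0835), and Irgm2, Parp12 and Samd9l were lost only at an adjusted p of 0.01. Stat2, Irf1 and Irf2 were called at week 4 without a called interaction, of 1.47 ± 0.52, 0.63 ± 0.23 and 0.77 ± 0.23. The interaction is built from the same 12 libraries as the comparisons above and is no separate evidence for them.

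Genes upstream were read from a list of 43, with 21 interferons, 9 receptors and kinases, 11 factors and inhibitors and 2 further enzymes of ISG15 conjugation, of which 21 were tested in culture. The interferons had hardly any reads: their summed counts were 9 and 8 in wt/wt and Δ/Δ at week 1, 7 and 50 at week 4, and 27 and 32 in sorted wt/Δ and Δ/Δ, and none was tested. Ifnb1 had a single count, in week 4 Δ/Δ replicate 3, the library with the highest total. At week 1 none of the 21 was called in either direction. At week 4, 5 of the 21 rose and 1 fell, where 9.2% of all genes were called higher and 6.46% lower. From week 1 to week 4, 8 rose and 1 fell in wt/wt (17.9% and 16.1% of all genes), and 9 rose and 2 fell in Δ/Δ (18.8% and 16.3%). Uba7, the enzyme that activates ISG15, had 13.2, 12.4 and 9.503 CPM in wt/wt and 40.1, 20.2 and 33.9 CPM in Δ/Δ (1.43 ± 0.29, adjusted p = 0.00463). Ube2l6, the other of the 2 further enzymes, was not called at week 4, with a log2 difference of 0.29. Irf5 had 6.80, 4.40 and 4.26 CPM in wt/wt and 12.7, 7.75 and 11.1 CPM in Δ/Δ (1.06 ± 0.21, adjusted p = 0.00412). Irf7, the factor that amplifies type I interferon production, had 11.7, 8.97 and 11.5 CPM in wt/wt and 95.4, 11.4 and 51.2 CPM in Δ/Δ (2.298 ± 0.70, adjusted p = 0.0441), and its call was lost without any 1 library other than Δ/Δ replicate 2 (adjusted p = 0.0684 to 0.169).

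At the receptor, Ifngr1, the ligand-binding chain for interferon-γ, had 382, 274 and 285 CPM in wt/wt and 638, 481 and 543 CPM in Δ/Δ (0.82 ± 0.14, adjusted p = 0.00159). The inhibitor Socs3 had 93.6, 157 and 152 CPM in wt/wt and 173, 198 and 253 CPM in Δ/Δ (0.63 ± 0.20, adjusted p = 0.0483) and was lost without wt/wt replicate 1 or 3 or Δ/Δ replicate 2 or 3 (adjusted p = 0.0605 to 0.198). Jak2, a kinase of the interferon-γ receptor, was the gene that fell, with 338, 330.2 and 400.1 CPM in wt/wt and 190.2, 201 and 162 CPM in Δ/Δ (-0.95 ± 0.12, adjusted p = 2.00e-04). Ifnar1 and Ifnar2, the type I receptor chains, had log2 differences of -0.04 ± 0.09 and 0.29 ± 0.13 and were not called. Irf5 (1.68 ± 0.29, adjusted p = 0.00333), Irf7 (4.65 ± 1.01, adjusted p = 0.0130) and Uba7 (1.87 ± 0.41, adjusted p = 0.0147) had a positive interaction with week and Jak2 (-1.06 ± 0.18, adjusted p = 0.00266) a negative one. In the sorted cells none of 22 tested genes of the list was called.

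**Figure D5:**
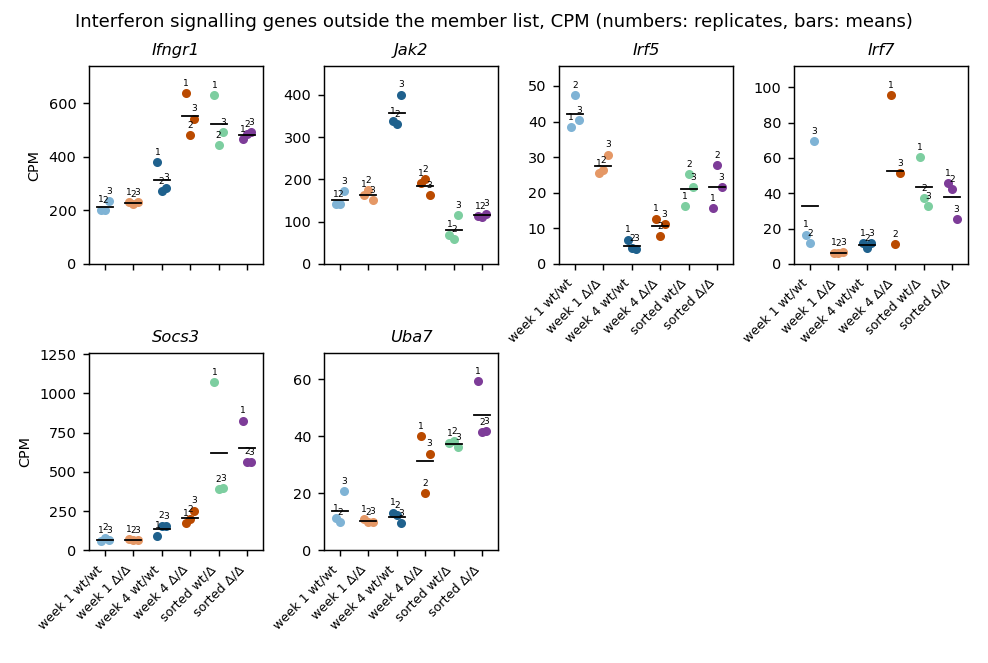
CPM of the 6 upstream genes that passed a test of genotype or of the interaction with week (Ifngr1, Jak2, Irf5, Irf7, Socs3 and Uba7), in the 18 libraries, on linear axes. Each point is a library, marked with its replicate number, and the bars are group means. In culture Jak2 is highest in week 4 wt/wt, and Irf7 has the widest spread, in week 1 wt/wt and week 4 Δ/Δ.

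In the cells sorted straight from marrow, none of the 52 genes was called between Δ/Δ and wt/Δ by edgeR, where none of 14605 genes was called in either direction (0% higher and 0% lower). At an unadjusted p under 0.05, 2 of the genes were higher and 2 lower, against 735 and 1057 of all genes. The median log2 difference of the 52 was 0.04 (-0.06 to 0.12 with a library left out). DESeq2 called Slfn5 higher (0.84, adjusted p = 0.0147) and Ifitm2 lower (-0.71, adjusted p = 0.0172) among the 44 members with an adjusted p, and 134 genes higher and 329 lower in all. Replicates 1 and 3 of wt/Δ had reads of Y-linked genes and no Δ/Δ library had any, so the sexes appear to differ between the groups. The part of this in the sorted differences was not tested. Without these wt/Δ libraries, with wt/Δ replicate 2 as the lone control, the median log2 difference of the 52 was 0.22. Without wt/Δ replicate 2 and Δ/Δ replicate 3, the libraries with high megakaryocyte markers, edgeR called none of the 52, and the median was 0.094. The 6 libraries limit what could be seen: the 95% interval of the log2 difference had a median width of 1.37, lay within 1 of 0 for 23 of the 52 genes and reached 1 or more for 16 and -1 or less for 14.

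Slfn5 had 71.9, 59.8 and 44.3 CPM in wt/Δ and 101, 115 and 101 CPM in Δ/Δ in the sorted cells (0.85 ± 0.20, adjusted p = 0.242, 95% interval 0.38 to 1.31). Ifit2 had 9.71, 12.5 and 11.7 CPM in wt/Δ and 17.9, 22.5 and 13.6 CPM in Δ/Δ (0.67 ± 0.25, adjusted p = 0.345). In both genes all Δ/Δ libraries lay above wt/Δ, as they did in 4 of the 52 (9.4% of all genes). Ifitm2 had 319, 249 and 234 CPM in wt/Δ and 149.9, 175 and 167 CPM in Δ/Δ (-0.70 ± 0.18, adjusted p = 0.251), with all Δ/Δ libraries below wt/Δ, as in 2 of the 52 (11.1% of all genes). Rtp4 had 94.5, 65.5 and 76.8 CPM in wt/Δ and 68.7, 51.8 and 42.3 CPM in Δ/Δ, with overlapping groups (-0.54 ± 0.23, adjusted p = 0.393). Gbp3 and Parp9 were the other genes with Δ/Δ above wt/Δ throughout. Gbp3 had 38.9, 29.0 and 38.0 CPM in wt/Δ and 65.9, 42.6 and 39.8 CPM in Δ/Δ (0.48 ± 0.24, adjusted p = 0.467), and Parp9 had 44.3, 38.7 and 36.8 CPM in wt/Δ and 50.2, 52.5 and 46.7 CPM in Δ/Δ (0.32 ± 0.16, adjusted p = 0.462). Ifi35 was the other gene below throughout, with 67.6, 51.7 and 50.4 CPM in wt/Δ and 46.3, 45.6 and 37.4 CPM in Δ/Δ (-0.39 ± 0.18, adjusted p = 0.441). Over the 52 genes the log2 difference ran from -1.06 ± 0.52 for Ifi27l2a, with 9.13, 21.7 and 5.94 CPM in wt/Δ and 8.72, 5.08 and 3.88 CPM in Δ/Δ, to 1.99 ± 1.10 for Mx2, with 0.554, 0.838 and 0 CPM in wt/Δ and 0.831, 2.63 and 2.21 CPM in Δ/Δ.

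None of the genes called at week 4 in culture was called here by edgeR. Some of them, with large and small week 4 differences, are given below with Ifitm3, which was not called at week 4. Usp18 had 43.1, 22.6 and 26.7 CPM in wt/Δ and 26.8, 18.9 and 16.2 CPM in Δ/Δ (-0.58 ± 0.30, adjusted p = 0.497, 95% interval -1.28 to 0.13). Isg15 had 34.9, 16.7 and 17.2 CPM in wt/Δ and 16.2, 17.3 and 10.4 CPM in Δ/Δ (95% interval -1.46 to 0.16), and Ifit1 had 35.7, 14.7 and 19.1 CPM in wt/Δ and 20.9, 17.8 and 9.26 CPM in Δ/Δ (95% interval -1.48 to 0.41). In these genes sorted wt/Δ replicate 1 was the highest library. Gbp2 had 77.9, 38.3 and 51.3 CPM in wt/Δ and 87.0, 80.2 and 58.0 CPM in Δ/Δ (95% interval -0.22 to 1.08). Herc6 had 20.7, 12.4 and 38.0 CPM in wt/Δ and 25.8, 21.2 and 16.9 CPM in Δ/Δ (-0.15 ± 0.39), and Iigp1 had 395, 167 and 373 CPM in wt/Δ and 407, 460.3 and 291 CPM in Δ/Δ (95% interval -0.48 to 1.09). Irf1 ranged widely within wt/Δ, with 714, 317 and 163 CPM in wt/Δ and 524, 479 and 325 CPM in Δ/Δ, and Ifitm3 had 1291, 709.6 and 474 CPM in wt/Δ and 534, 571 and 477 CPM in Δ/Δ. Lgals3bp had 1081, 406 and 272 CPM in wt/Δ and 557, 523 and 396 CPM in Δ/Δ. In Irf1, Ifitm3 and Lgals3bp wt/Δ replicate 1 was again the highest library and replicate 3 the lowest.

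Sorted wt/Δ replicate 1 was the highest of its group in 30 of the 52 genes, and in Δ/Δ replicate 1 was the highest in 37 and replicate 3 the lowest in 41. Genes scarce in culture had reads here: Rsad2 had 41.7, 47.1 and 31.4 CPM in wt/Δ and 50.4, 40.5 and 22.7 CPM in Δ/Δ, and Epsti1 had 4.03, 7.38 and 4.64 CPM in wt/Δ and 4.98, 9.19 and 4.70 CPM in Δ/Δ. Mx1 stayed under 1 CPM in every library (0.956, 0.389 and 0 CPM in wt/Δ and 0.153, 0.786 and 0 CPM in Δ/Δ). The macrophage, granulocyte and endothelial markers given above were present in these libraries, and their part in the levels was not tested.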

How the data were processed

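RNA from tdTomato+ MSPCs was amplified with SMART-Seq v4 and made into Nextera XT libraries, which keep no strand. Per the labels and the submitters' processing notes, the authors used HISAT2 2.0.4 for alignment to mm10 and featureCounts 1.6.3 for counting, and the deposited values are raw counts, 1 column per library. The annotation used for counting is not given in the sources used here. Reads of relatives with similar sequences or of antisense genes could be miscounted.

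Groups followed the sample titles. The 12 cultured libraries were fitted together and the 6 sorted libraries separately with edgeR 4.0.16 (quasi-likelihood, R 4.3.3, limma 3.58.1), after filterByExpr with a minimum count of 10 and TMM scaling, which left 13169 and 14605 genes. P-values were adjusted over all genes tested (Benjamini-Hochberg, threshold 0.05). CPM are TMM-scaled. Errors are SEs, intervals are 95%, and a group at 0 was set to a floor of 3 counts over its libraries, which covers counting error only. Plots use log2(CPM + 0.5). Depth was 12807832 to 90717232 counts per library.

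The members and lists were chosen with earlier results of these data known. From the list of upstream genes, 1 was left out and enters no count or value. Every member could be named, with full values for those called and for the most abundant uncalled ones of each role. Deviations from the group means correlated 0.244, 0.411 and 0.373 between wt/wt libraries of the same number at the 2 weeks, over 9405 genes. In Δ/Δ the weeks matched more closely in another order. Week 1 Δ/Δ replicates 1, 2 and 3 correlated 0.340, 0.518 and 0.413 with week 4 Δ/Δ replicates 2, 1 and 3. Sorted libraries of the same number correlated 0.081, 0.223 and 0.033 between genotypes. At week 4 the genotypes matched more closely in another order. Deviations of wt/wt replicates 1, 2 and 3 correlated 0.870, 0.600 and 0.746 with those of Δ/Δ replicates 1, 3 and 2. At week 1 the same order gave 0.075, 0.218 and 0.226. No fit used these other orders, and what they stand for was not tested. Replicate pairs differed by more than sampling noise, with a chi-squared per degree of freedom of 10.8 to 375.6. Alternatives were DESeq2 1.42.0, other scalings, filters, samples and thresholds, the replicate block, leaving out each library and, added after seeing the data, thinning to the lowest depth leaving out both sorted wt/Δ libraries 1 and 3, and leaving out the sorted libraries high in megakaryocyte markers. Scripts were tested on simulated data, with lower recovery for the sorted comparison than for the genotype comparisons in culture. Promoter windows came from RefSeq tables (GRCm38.p6).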

Additional observations from a re-analysis of the deposited data

Results flagged for a closer look

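For 35 interferon-stimulated genes and 4 upstream genes, the difference between Δ/Δ and wt/wt was itself different at week 4 from that at week 1, by the interaction term over the 12 cultured libraries (edgeR, adjusted p under 0.05). Values below are interactions on the log2 scale, positive where Δ/Δ stood higher relative to wt/wt at week 4 than at week 1. They all rest on 3 libraries a group and on the same 12 libraries.

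Among genes of ISG15 conjugation the interaction was 6.96 for Isg15, 9.77 for Usp18 and 2.74 for Herc6. Among RNA and translation effectors it was 7.98 for Ifit1, 1.07 for Ifit2, 5.53 for Ifit3, 1.16 for Eif2ak2, 1.54 for Adar, 5.84 for Ddx60, 1.87 for Samd9l, 4.07 for Slfn2, 2.91 for Slfn5 and 2.88 for Slfn8. Rsad2 gave 8.82, Cmpk2 3.46, Bst2 4.29 and Mx2 7.11. The values of Rsad2 and Mx2 rest on low counts.

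GTPases gave 1.58 for Gbp2, 5.33 for Gbp3, 3.57 for Gbp6, 3.23 for Gbp7, 3.07 for Igtp, 2.86 for Irgm2 and 4.99 for Iigp1. In the group of ubiquitin ligases, ADP-ribosyltransferases and nuclear body genes, Trim30a gave 5.33, Parp9 2.20, Parp12 1.51, Parp14 3.09, Dtx3l 2.36 and Sp100 3.29. Of the others, Ifi44 gave 6.29, Xaf1 2.84, Rtp4 7.83 and Lgals3bp 2.59. Ifi27l2a gave 10.66, a fitted value that depends on the prior count because its week 4 wt/wt libraries were at 0.

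Upstream, the interaction was 1.68 for Irf5, 4.65 for Irf7, 1.87 for Uba7 and -1.06 for Jak2, the one negative value.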

How the results depend on the processing

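The direction of the medians over the interferon-stimulated genes held in each alternative run for the comparisons in culture, but their size and the counts of calls moved. At week 1, the 2 genes called lower became 19 with DESeq2, 7 with no filter, 5 with only the libraries compared, 1 with at least 10 counts in every library, 0 at a threshold of 0.01, 6 at 0.1, and 0 to 5 when a library was left out. At week 4, the 35 called higher became 18 at a threshold of 0.01 and 22 to 41 with a library left out. In wt/wt over time, the 18 called lower became 5 at 0.01 and 6 to 23 with a library left out, and 1 gene was called higher with DESeq2, RLE scaling, thinned counts or a threshold of 0.1 (0 to 1 with a library left out). In sorted cells DESeq2 called 1 higher and 1 lower. Ifitm2 turned at week 4 from -0.05 to 0.04 without wt/wt replicate 1 and 0.074 without Δ/Δ replicate 2 (-0.157 to 0.074 over all libraries left out), and Herc6 in sorted cells from -0.15 to 0.37 without wt/Δ replicate 3 and 0.78 without wt/Δ replicates 1 and 3 (-0.46 to 0.37 over all libraries left out). The cause of these moves was not tested, beyond the smaller number of samples or the other threshold itself.

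Over all genes, the 99 higher and 35 lower at week 1 became 283 and 170 with DESeq2, 65 and 20 with 10 counts in every library, 167 and 70 with only the libraries compared, 26 and 14 at a threshold of 0.01, 235 and 96 at 0.1, and 30 to 111 and 15 to 70 with a library left out, with 63 higher in thinned counts and 60 lower with no filter. The 1211 higher and 851 lower at week 4 became 759 and 508 with only the libraries compared and 727 and 501 at 0.01. At 0.01 the interaction gave 284 and 224 genes, time in wt/wt 1496 and 1348, and time in Δ/Δ 1568 and 1333. In sorted cells DESeq2 gave 134 and 329 against 0 and 0, and leaving out a library gave 0 to 1 and 0 to 3, and leaving out both libraries high in megakaryocyte markers 0 and 2. The cause was not tested.

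With the replicate number as a block, the genes called were 3 lower at week 1, 37 higher at week 4, 18 lower over time in wt/wt, 46 higher over time in Δ/Δ, 35 positive in the interaction and 0 in sorted cells. In wt/wt over time, Irgm1 was the call lost, and whether the numbers pair these libraries by mouse is not given. The block follows the numbers, and so not the order in which the genotypes matched most closely at week 4. Mx1 and Epsti1 did not pass the filter on low counts in culture and entered the test only with no filter.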
